A study of Mus musculus with 2 samples.

Results

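Long noncoding RNAs are transcripts that are not translated into a protein of known function, and many of them act, or are made, in the cell nucleus. The 8 described here were taken from 53465 genes of the table by their symbol. They are Malat1, Neat1, Meg3, Snhg11, Miat, Kcnq1ot1, Snhg1 and Gas5, each found as 1 row. Snhg11 was chosen because it was higher in the NeuroD1 library, so its difference is given as a description, and the others were chosen as abundant nuclear or neuronal noncoding RNAs. The deposited table classes Snhg11 as protein-coding and the others as lincRNA, antisense RNA or processed transcript. Malat1 and Neat1 alone lay above the 95th percentile of chemoreceptor genes, which these cells are not known to use, in both libraries.

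The samples were endothelial cells, the lining of blood vessels, isolated from C57Bl/6 mice of the tie2-cre genotype. One library has NeuroD1 and the other GFP as its labelled treatment, GFP being a fluorescent protein used as control and NeuroD1 a transcription factor of neuronal differentiation. The Tie2 promoter drives Cre in endothelial cells and also in part of the blood lineage. Per the labels, cells of 3 mice were collected and 10000 cells lysed, and whether the 3 mice were pooled in each library or are the number in all is not stated. The reverse transcription primers were those of DRUG-seq, which prime at the poly(A) end. Age, vector, dose, time after treatment and whether the animals had a stroke are not stated in the labels. Each group is a single library (1 per group), so no difference below has a replicate check or a p-value.

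Values are FPKM, fragments per kilobase of exon, divided by a library total that the labels do not define. The reads behind them were recovered from the values for the 51162 genes where they were whole in both libraries. These summed to 2001426 reads in the NeuroD1 library and 2011130 in the GFP library. Although these sums are nearly equal, 1 read was worth more FPKM in NeuroD1 than in GFP for a gene of the same length, so the deposited values are not scaled to these sums, and ratios are also given with the sums made equal. The predicted gene Gm10800 alone took 41.9% of these recovered reads in NeuroD1 and 37.7% in GFP. Neurod1 itself stood at 182 FPKM in NeuroD1 (970 reads) and 0.664 FPKM in GFP (4 reads). Of 16 endothelial markers 15 lay above the 95th percentile of chemoreceptor genes in each library, with a median of 11.1 FPKM in NeuroD1 and 9.60 FPKM in GFP. Chemoreceptor genes, 1515 receptors for odours, pheromones and taste, had a median of 1.40 FPKM in NeuroD1 and 1.54 FPKM in GFP, and a 95th percentile of 4.79 FPKM in NeuroD1 and 4.38 FPKM in GFP. A noncoding RNA at such a level cannot be told apart from reads outside expressed genes by its level alone.

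These RNAs are known for different roles. Malat1 collects in nuclear speckles, compartments rich in splicing factors, and is among the most abundant RNAs of endothelial cells and neurons. Neat1 is the scaffold of paraspeckles, bodies that form around it. Meg3 and Kcnq1ot1 come from imprinted loci, where only the allele of one parent is active, and Kcnq1ot1 is the antisense transcript that silences its neighbours on the paternal copy. Snhg1, Snhg11 and Gas5 are hosts of small nucleolar RNAs (snoRNAs), guides of ribosomal RNA modification that are cut out of the host transcript, and Gas5 is also known to accumulate in growth arrest. Miat and Snhg11 are known from neurons, and Miat also from vessels.

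The start regions of the RNAs with FPKM ratios farthest from 1, Snhg11, Meg3 and Gas5, and of the most abundant one, Malat1, are printed below. The Gas5 ratio rested on only 8 reads in NeuroD1 and 17 in GFP. These regions run from 250 bases before to 50 bases after the RefSeq start site (GRCm38.p6), read along the strand of the gene. Capitals mark every E-box, the motif CANNTG that basic helix-loop-helix factors such as NeuroD1 bind. The windows lie at chr2:158375463-158375762 (plus strand) for Snhg11, chr12:109540746-109541045 (plus) for Meg3, chr1:161034351-161034650 (plus) for Gas5 and chr19:5802623-5802922 (minus) for Malat1.
Snhg11: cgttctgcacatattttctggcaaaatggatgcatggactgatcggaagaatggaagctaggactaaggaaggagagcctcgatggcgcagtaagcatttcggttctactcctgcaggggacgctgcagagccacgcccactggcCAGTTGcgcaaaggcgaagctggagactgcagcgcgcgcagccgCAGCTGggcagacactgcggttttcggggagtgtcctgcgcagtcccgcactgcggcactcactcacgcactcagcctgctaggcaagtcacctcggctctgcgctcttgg
Meg3: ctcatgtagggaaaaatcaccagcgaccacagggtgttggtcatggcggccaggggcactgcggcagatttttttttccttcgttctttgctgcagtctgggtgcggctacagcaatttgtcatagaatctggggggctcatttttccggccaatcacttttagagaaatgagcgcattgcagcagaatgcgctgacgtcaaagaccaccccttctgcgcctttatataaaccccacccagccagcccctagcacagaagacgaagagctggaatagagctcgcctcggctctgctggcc
Gas5: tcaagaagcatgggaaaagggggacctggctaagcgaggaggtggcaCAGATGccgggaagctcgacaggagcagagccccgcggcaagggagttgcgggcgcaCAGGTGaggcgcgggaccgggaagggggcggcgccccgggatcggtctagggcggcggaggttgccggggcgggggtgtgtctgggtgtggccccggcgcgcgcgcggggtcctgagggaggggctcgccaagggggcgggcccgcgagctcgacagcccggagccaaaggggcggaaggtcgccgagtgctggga
Malat1: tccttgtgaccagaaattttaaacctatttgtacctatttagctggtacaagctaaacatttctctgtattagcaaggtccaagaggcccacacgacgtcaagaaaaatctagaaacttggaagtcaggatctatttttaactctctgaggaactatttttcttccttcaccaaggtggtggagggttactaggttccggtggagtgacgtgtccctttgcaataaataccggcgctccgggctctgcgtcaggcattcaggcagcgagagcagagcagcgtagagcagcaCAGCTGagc
The Snhg11 window held 2 E-boxes, at positions -105 and -61 relative to the start site. The Meg3 window held 0, the Gas5 window 2 and the Malat1 window 1, at position 41. CAGATG, read on both strands, is an E-box that NeuroD factors are known to prefer, and of these 4 windows only that of Gas5 held it. Searched the same way (CANNTG reads alike on both strands and includes CAGATG), 72.3% of all 32851 RefSeq windows of this length held CANNTG and 17.2% held CAGATG. In all, 7 of the 8 RNAs had 9 windows in RefSeq, as Gas5 and Meg3 have a pair each, and 5 windows held CANNTG and 2 held CAGATG. The other CAGATG stood in the Kcnq1ot1 window, the second Gas5 window held neither motif, and the second Meg3 window held 1 CANNTG. No RefSeq window was matched for Neat1. A match is a description of the letters and not a binding site.

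Snhg11 and Meg3 were about 2-fold higher in NeuroD1, and Malat1 and Neat1 had similar FPKM in both libraries as deposited. The chemoreceptor median exceeded Gas5 and Miat in NeuroD1, and Meg3 and Miat in GFP. On the log2(FPKM + 1) scale, NeuroD1 minus GFP, 5 of the 8 lay above 0 and 3 below, from -0.54 for Gas5 to 0.78 for Snhg11, with a median of 0.04. Over all 45200 genes at 1 FPKM or more in one library or both the median was -0.03, and over 8007 lncRNA genes it was -0.09. None of the 8 reached a difference of 1 or -1 on this scale. Other settings turned this for Snhg11, at 1.16 with the chemoreceptor median subtracted from each library, and for Meg3, at 1.04 with that subtraction and 1.01 with a pseudocount of 0.1. Only Malat1, Neat1 and Snhg11 passed the minimum of 5 FPKM in one library or both, and Snhg11 passed it through NeuroD1 alone. Among all genes past that minimum 12.9% were higher and 15.6% lower by this rule, and among lncRNA genes 11.5% were higher and 17.7% lower. lncRNA genes are here those classed by the table as lincRNA, antisense RNA, processed transcript or a related noncoding class.

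**Figure D1:**
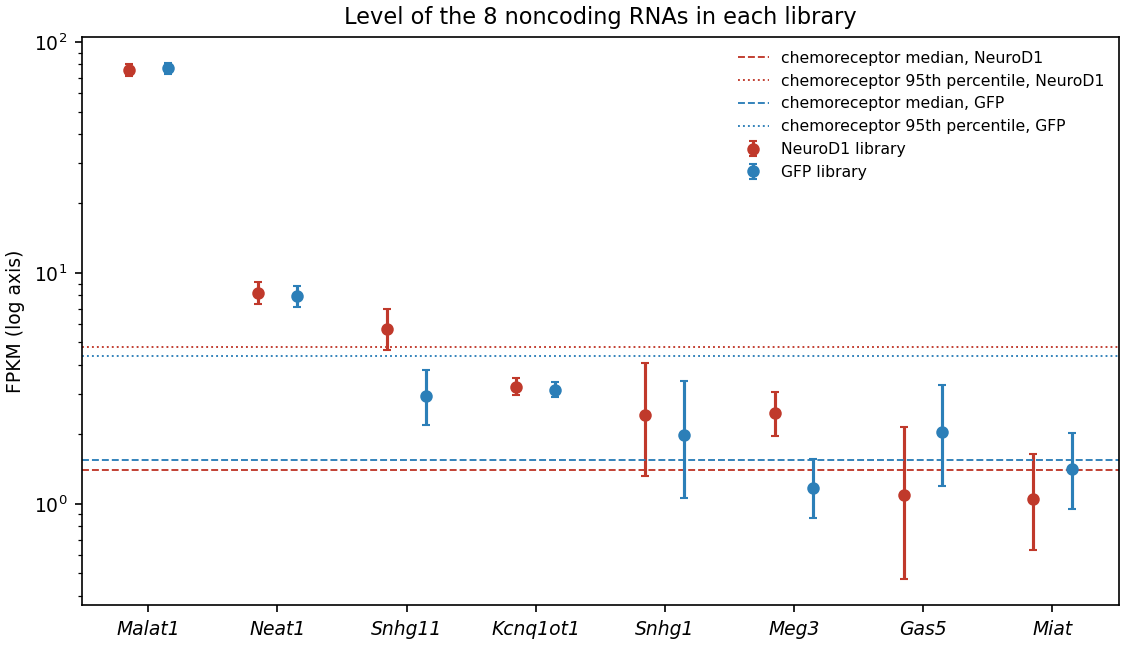
FPKM of the 8 RNAs (log axis) in the NeuroD1 library (red, left) and the GFP library (blue, right), with exact 95% Poisson intervals of the reads, and the median (dashed) and 95th percentile (dotted) of 1515 chemoreceptor genes. Malat1 and Neat1 lie above the dotted lines in both libraries and Snhg11 in NeuroD1 (5.72 FPKM) but not in GFP (2.92 FPKM).

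The second rule used reads. The ratio of FPKM, NeuroD1 over GFP, was given an exact Clopper-Pearson 95% interval from the recovered reads. It compares these 2 libraries and covers counting error only. By this rule the intervals of Snhg11 and Meg3 lay above 1, and those of the other 6 held 1. That of Snhg11 is a description only, as this RNA was chosen for being higher in NeuroD1. Among all genes with at least 20 reads over both libraries the interval lay above 1 in 6.11% and below 1 in 6.1%, and among lncRNA genes above 1 in 5.55% and below 1 in 6.25%. In the band from 50 to below 200 reads, which holds Snhg11 and Meg3, the interval lay above 1 in 5.73% of 9187 genes and 6.28% of 557 lncRNA genes.

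Malat1 (ENSMUSG00000092341, chr19:5795690-5802672 in GRCm38, minus strand, 1 exon block of 6983 bases in GENCODE M21) stood at 75.9 FPKM in NeuroD1 and 77.0 FPKM in GFP. These levels rest on 1034 reads in NeuroD1 and 1188 reads in GFP and give a ratio of 0.986 (95% interval 0.906 to 1.07). A gene of its length at the chemoreceptor median would hold 19.1 reads in NeuroD1 and 23.8 in GFP. By FPKM it ranked 19th in NeuroD1 and 16th in GFP among 9287 genes, the lncRNA genes and Snhg11. Most other genes of similar level had higher differences: of 42 protein-coding genes with a mean of 50 to 1000 FPKM and at least 20 reads, 40 had a higher log2(FPKM + 1) difference than Malat1, and their median was 0.32 against -0.02 for Malat1. Of 23 lncRNA genes of that level, 21 had a higher difference. The direction for Malat1 depended on the scaling between libraries. When genes above 1000 FPKM were dropped before equalising the sums, its ratio stayed near the deposited one, at 0.989 (interval 0.909 to 1.08). Sums over all genes include Gm10800, which took 41.9% of the recovered reads in NeuroD1 and 37.7% in GFP. Its part in the shifts below was not tested. The ratio was 0.837 (interval 0.769 to 0.910) when the FPKM sums were made equal, 0.875 (0.804 to 0.951) with the same sum of recovered reads and 1.08 (0.996 to 1.18) with the same chemoreceptor median.

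Neat1 (ENSMUSG00000092274, chr19:5824708-5845478, minus strand, 1 exon block of 20771 bases) stood at 8.20 FPKM in NeuroD1 and 7.93 FPKM in GFP. It had 332 reads in NeuroD1 and 364 reads in GFP (ratio 1.03, interval 0.888 to 1.20). Its level exceeded that of 98.3% of chemoreceptor genes in NeuroD1 and 98.5% in GFP. The gene total cannot separate the short and the long isoform, of which only the long one builds paraspeckles. Its ratio was 0.877 (interval 0.754 to 1.02) with the same sum of FPKM and 1.14 (0.975 to 1.32) with the same chemoreceptor median, so its direction turned with the scaling while each interval held 1. Without genes above 1000 FPKM in the equalised sums, the Neat1 ratio was 1.04 (0.891 to 1.21), near the deposited one. Against Malat1 within the same library, which no scaling touches, Neat1 had 32.1 reads per 100 Malat1 reads in NeuroD1 and 30.6 in GFP, a ratio of 1.05 (exact conditional interval 0.880 to 1.25).

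Malat1 and Neat1 lie beside each other, and the protein-coding gene Frmd8 lies next to Neat1. Frmd8 stood at 4.74 FPKM in NeuroD1 and 6.59 FPKM in GFP (47 reads in NeuroD1 and 74 in GFP, ratio 0.719, interval 0.488 to 1.05), an interval that held 1, as did those of Malat1 and Neat1 as deposited.

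Snhg11 (ENSMUSG00000044349, chr2:158375638-158386145, plus strand, 4 exon blocks of 8521 bases in all) stood at 5.72 FPKM in NeuroD1 and 2.92 FPKM in GFP. It had 95 reads in NeuroD1 and 55 reads in GFP (ratio 1.96, interval 1.39 to 2.78). Its level exceeded that of 96.5% of chemoreceptor genes in NeuroD1 and 86.3% in GFP. A gene of its length at the chemoreceptor median would hold 23.3 reads in NeuroD1 and 29.0 in GFP. The ratio ranged from 1.66 (interval 1.18 to 2.36) with the same sum of FPKM to 2.15 (1.53 to 3.05) with the same chemoreceptor median. Relative to Malat1 it had 9.19 reads per 100 Malat1 reads in NeuroD1 and 4.63 in GFP, a ratio of 1.98 (interval 1.39 to 2.85). Its neighbours did not share the difference in value: Lbp, a lipopolysaccharide-binding protein, had a ratio of 0.944 (interval 0.585 to 1.51) and Ralgapb, a subunit of a Ral GTPase-activating complex, a ratio of 0.977 (0.726 to 1.31). The 3 genes with the most similar pair of levels, by Euclidean distance of log2(FPKM + 1) over the 2 libraries, were Sh2b2 (5.69 FPKM in NeuroD1, 2.93 in GFP), Vbp1 (5.77 FPKM in NeuroD1, 2.97 in GFP) and Bloc1s3 (5.63 FPKM in NeuroD1, 2.98 in GFP).

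Neuron markers are given beside Snhg11 because it is a neuronal RNA. Of 20 markers 19 were at 1 FPKM or more in one library or both, none was at 0 in both, and their summed level was 95.7 FPKM in NeuroD1 and 79.5 FPKM in GFP. On the log2(FPKM + 1) scale 13 of the 19 lay above 0, with a median of 0.29, and 1 reached a difference of 1. This was Slc32a1, the vesicular GABA transporter, at 3.85 FPKM in NeuroD1 and 0.647 FPKM in GFP (21 reads in NeuroD1 and 4 in GFP, ratio 5.95, interval 2.01 to 23.8). The synaptic vesicle protein Syn1 had 24 reads in NeuroD1 and 17 in GFP (ratio 1.599, interval 0.824 to 3.17), and the neurofilament Nefl had 7 in NeuroD1 and 17 in GFP (ratio 0.466, interval 0.164 to 1.18). Slc17a7 had 57 reads in NeuroD1 and 41 in GFP (ratio 1.57, interval 1.04 to 2.41). The most abundant marker was Rbfox3, at 31.0 FPKM in NeuroD1 and 26.8 FPKM in GFP (ratio 1.16, interval 0.996 to 1.35). Tubb3 followed at 12.4 FPKM in NeuroD1 and 8.97 FPKM in GFP (ratio 1.38, interval 0.872 to 2.19). Only 4 of the 20 markers lay above the chemoreceptor 95th percentile in NeuroD1 and 3 in GFP. Endothelial markers had a similar share above 0, 11 of 16, with a median difference of 0.17 and 4 of 15 intervals above 1, against 2 of 19 intervals of neuron markers. Over all genes at 1 FPKM or more 47.9% lay above 0. Of markers of other brain cells, 2 of 11 of microglia (median difference -0.28), 3 of 9 of mural cells (-0.20), 4 of 9 of astrocytes (-0.02) and 6 of 10 of oligodendrocytes (0.04) lay above 0. Their part in the Snhg11 and Meg3 values was not tested. In bulk RNA, more or fewer cells of a type and more or less RNA per cell cannot be told apart.

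Meg3 (ENSMUSG00000021268, chr12:109541001-109571726, plus strand, 8 exon blocks of 18089 bases in all) stood at 2.47 FPKM in NeuroD1 and 1.18 FPKM in GFP. It had 87 reads in NeuroD1 and 47 reads in GFP (ratio 2.10, interval 1.45 to 3.06). At the chemoreceptor median a gene of its length would hold 49.5 reads in NeuroD1 and 61.7 in GFP, so that Meg3 lay above that median in NeuroD1 and below it in GFP. Neither level reached the chemoreceptor 95th percentile. Relative to Malat1, Meg3 had 8.41 reads per 100 Malat1 reads in NeuroD1 and 3.96 in GFP, a ratio of 2.13 (interval 1.46 to 3.13). The FPKM ratio ranged from 1.78 (interval 1.23 to 2.60) to 2.304 (1.598 to 3.36) over the other scalings.

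Meg3 is the first of a row of maternally expressed noncoding RNAs in the Dlk1-Dio3 imprinted region, in which Rian hosts many snoRNAs and Mirg hosts microRNAs. Rian stood at 1.74 FPKM in NeuroD1 and 1.12 FPKM in GFP (62 reads in NeuroD1 and 45 in GFP, ratio 1.56, interval 1.05 to 2.34). Mirg stood at 2.39 FPKM in NeuroD1 and 3.60 FPKM in GFP (34 reads in NeuroD1 and 58 in GFP, ratio 0.664, interval 0.422 to 1.03). The noncoding RNAs of the row thus did not share 1 direction. The paternally expressed Dlk1, a ligand-like membrane protein, had 9 reads in NeuroD1 and 13 in GFP (ratio 0.784, interval 0.296 to 1.98), and Rtl1, derived from a retrotransposon, had 4 reads in NeuroD1 and 8 in GFP (ratio 0.566, interval 0.125 to 2.11). Of 6 genes of the region 4 were at 1 FPKM or more, 2 of them above 0, with a median log2(FPKM + 1) difference of 0.10, and none lay above the chemoreceptor 95th percentile in either library.

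Kcnq1ot1 (ENSMUSG00000101609, chr7:143203458-143296549, minus strand, 1 exon block of 93092 bases) stood at 3.22 FPKM in NeuroD1 and 3.13 FPKM in GFP. Whole reads were not recovered, since its level implied 584.6 reads in NeuroD1 and 643.1 in GFP with the length used. From these rounded, the ratio of 1.03 had an approximate interval of 0.920 to 1.15. The same length at the chemoreceptor median would hold 255 reads in NeuroD1 and 317 in GFP, so Kcnq1ot1 exceeded that median 2.29-fold in NeuroD1 and 2.03-fold in GFP. Its level exceeded that of 88.3% of chemoreceptor genes in NeuroD1 and 88.4% in GFP. Its ratio was 0.874 (interval 0.781 to 0.980) with the same sum of FPKM, 0.913 (0.816 to 1.02) with the same sum of recovered reads and 1.13 (1.01 to 1.27) with the same chemoreceptor median, so that its direction rested on the scaling. Without genes above 1000 FPKM in the equalised sums, the Kcnq1ot1 ratio was 1.03 (0.923 to 1.16), near the deposited one.

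Kcnq1ot1 runs antisense within Kcnq1, a potassium channel gene, and is known to silence genes of the surrounding domain. Kcnq1 stood at 4.76 FPKM in each library (38 reads in NeuroD1 and 43 in GFP). Without Kcnq1ot1, 13 genes of the domain were measured and 8 lay above 0, with a median log2(FPKM + 1) difference of 0.13. No interval of the 11 with at least 20 reads lay apart from 1. The cell cycle inhibitor Cdkn1c, a known target of this silencing, stood at 2.01 FPKM in NeuroD1 and 3.996 FPKM in GFP (8 reads in NeuroD1 and 18 in GFP, ratio 0.503, interval 0.189 to 1.22). Phlda2, another target, had 5 reads in NeuroD1 and 9 in GFP (ratio 0.629, interval 0.166 to 2.09), Dhcr7, an enzyme of cholesterol synthesis, 47 reads in NeuroD1 and 35 in GFP (ratio 1.52, interval 0.961 to 2.43), and Tssc4 15 reads in NeuroD1 and 11 in GFP (ratio 1.54, interval 0.663 to 3.72). The most abundant genes of the domain were Nap1l4, a histone chaperone, at 9.28 FPKM in NeuroD1 and 11.1 FPKM in GFP, and the tetraspanin Cd81 at 7.66 FPKM in NeuroD1 and 6.92 FPKM in GFP.

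**Figure D2:**
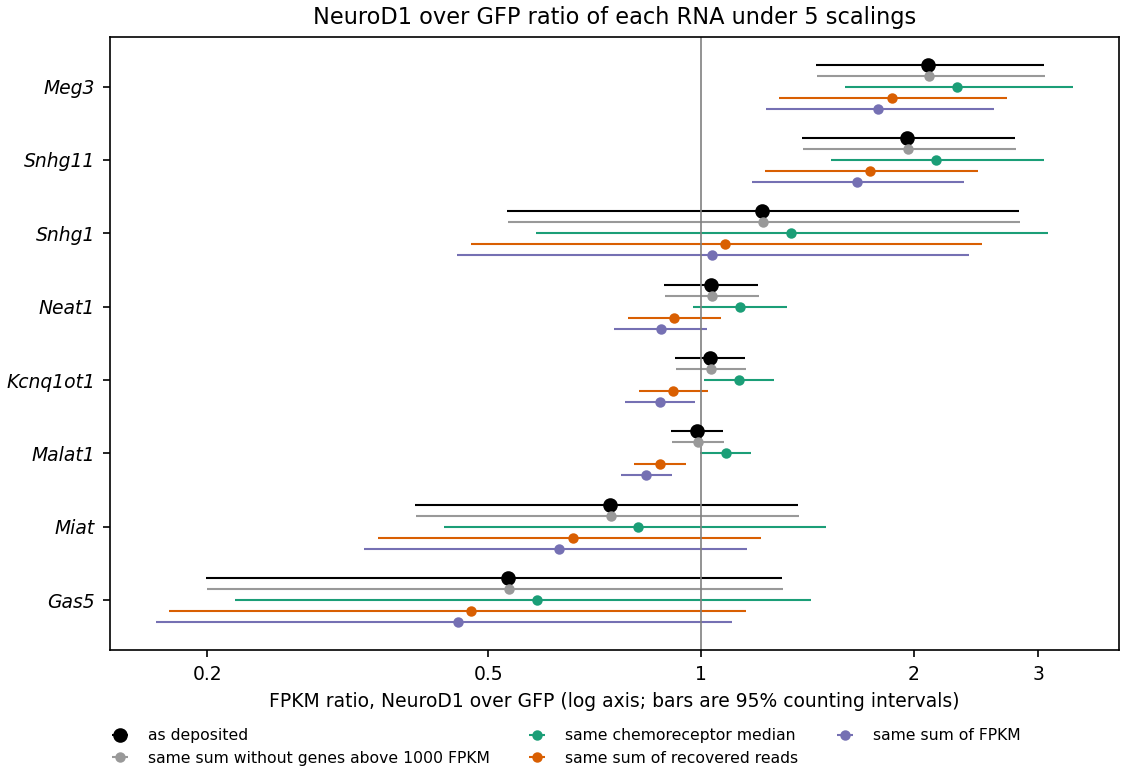
FPKM ratio of each RNA, NeuroD1 over GFP (log axis), with 95% counting intervals, as deposited and under the other scalings between the libraries. Snhg11 and Meg3 stay to the right of 1 in all 5, whereas Malat1, Neat1 and Kcnq1ot1 lie on either side of 1 depending on the scaling and the intervals of Gas5, Miat and Snhg1 are wide.

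The other snoRNA hosts, Snhg1 and Gas5, rested on few reads. Snhg1 (ENSMUSG00000108414, chr19:8723475-8726443, plus strand, 1 exon block of 2969 bases) stood at 2.42 FPKM in NeuroD1 and 1.98 FPKM in GFP, from 14 reads in NeuroD1 and 13 in GFP (ratio 1.22, interval 0.532 to 2.82). Gas5 (ENSMUSG00000053332, chr1:161034422-161038539, plus strand, 3 exon blocks of 3760 bases in all) stood at 1.09 FPKM in NeuroD1 and 2.05 FPKM in GFP, from 8 reads in NeuroD1 and 17 in GFP (ratio 0.533, interval 0.199 to 1.30). At the chemoreceptor median genes of their lengths would hold 8.13 reads (Snhg1) and 10.3 reads (Gas5) in NeuroD1, and 10.1 reads (Snhg1) and 12.8 reads (Gas5) in GFP. The difference of Gas5 between the libraries was therefore not detectable at this depth, since its interval runs on both sides of 1.

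The genes of the snoRNAs themselves lie inside these hosts, 10 in Gas5, 8 in Snhg1 and 2 in Snhg11. Of these 20 snoRNA genes 19 were listed at 0 in both libraries. The exception, Gm25129 in an intron of Snhg11, had 3 reads in each library. All 35 annotated genes that lie wholly within exons of the 8 RNAs, on either strand, were listed at 0 in both libraries, among them the microRNA genes Mir770 and Mir1906-1 in Meg3 and Gm37376 opposite the abundant Malat1. A value of 0 for such a gene therefore says nothing of its RNA. The shared bases made up 30.4% of the exon length of Miat, 20.9% of Snhg1 and 17.8% of Gas5, and less than 10% of each of the others. FPKM and the reads expected at the chemoreceptor median use the whole length. If reads in shared bases were not counted, Miat, Snhg1 and Gas5 stand too low beside that median. No source used here says whether counting used strand, so reads of Miat and its antisense gene Gm26953, and of Kcnq1ot1 and Kcnq1, may not be told apart where their exons overlap. Without strand, reads from introns of Kcnq1 would also count as Kcnq1ot1 where its exon block lies within them. The level of Kcnq1ot1 may therefore not be its own alone.

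Among all snoRNA host genes named Snhg, with Gas5, 17 of 18 listed symbols were in the table and 16 were at 1 FPKM or more. On the log2(FPKM + 1) scale 9 of the 16 lay above 0 and 7 below, with a median of 0.06. Without the 3 RNAs described above, 7 of 13 lay above 0 with a median of 0.01. Snhg9 stood at 2.80 FPKM in NeuroD1 and 17.3 FPKM in GFP, from 1 read in NeuroD1 and 7 in GFP (ratio 0.162, interval 0.00359 to 1.26), and Snhg3 was listed at 0 in NeuroD1 and had 3 reads in GFP. Snhg6 had 7 reads in NeuroD1 and 2 in GFP (ratio 3.96, interval 0.755 to 39.1), and Snhg10 13 reads in NeuroD1 and 9 in GFP (ratio 1.64, interval 0.647 to 4.34). Of the 9 hosts with at least 20 recovered reads, Snhg11 was the only one whose interval lay apart from 1. It was chosen for being higher in NeuroD1, so its place among the hosts is a description. Hosts without whole reads, Snhg12 and Snhg20 among them (ratios 1.13 and 0.591), were left out of this count. Among all genes with at least 20 reads the interval lay above 1 in 6.11% and below 1 in 6.1%.

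Miat (ENSMUSG00000097767, chr5:112213228-112229395, minus strand, 6 exon blocks of 9293 bases in all) stood at 1.05 FPKM in NeuroD1 and 1.41 FPKM in GFP. It had 19 reads in NeuroD1 and 29 reads in GFP (ratio 0.742, interval 0.393 to 1.37). A gene of its length at the chemoreceptor median would hold 25.5 reads in NeuroD1 and 31.7 in GFP, more than Miat had in each library. Its level as deposited was thus not distinguishable from that of chemoreceptor genes. This expectation uses the whole exon length, of which 30.4% is shared with other genes. If reads in shared bases were not counted, the level of Miat is understated.

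Ordered by FPKM, the NeuroD1 library had Malat1, Neat1, Snhg11, Kcnq1ot1, Meg3, Snhg1, Gas5 and Miat. The first 4 steps of this order exceeded counting error, among them Malat1 over Neat1 (9.26-fold, interval 8.18 to 10.5), Snhg11 over Kcnq1ot1 (1.78-fold, 1.41 to 2.21) and Kcnq1ot1 over Meg3 (1.31-fold, 1.04 to 1.66). Meg3, Snhg1, Gas5 and Miat did not differ from their next neighbour beyond counting error. The GFP library had Malat1, Neat1, Kcnq1ot1, Snhg11, Gas5, Snhg1, Miat and Meg3, and only the first 2 steps exceeded counting error, Malat1 over Neat1 (9.71-fold, interval 8.63 to 10.9) and Neat1 over Kcnq1ot1 (2.54-fold, 2.22 to 2.89). Snhg11 thus stood above Kcnq1ot1 in NeuroD1 and beside it in GFP (Kcnq1ot1 over Snhg11 1.07-fold, 0.812 to 1.44), and Meg3 had rank 5 in NeuroD1 and rank 8 in GFP. FPKM divide by the whole exon length, whereas the primers used mark the poly(A) end, so the order between long and short RNAs depends on how reads spread over the transcript, which the gene totals do not show.

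**Figure D3:**
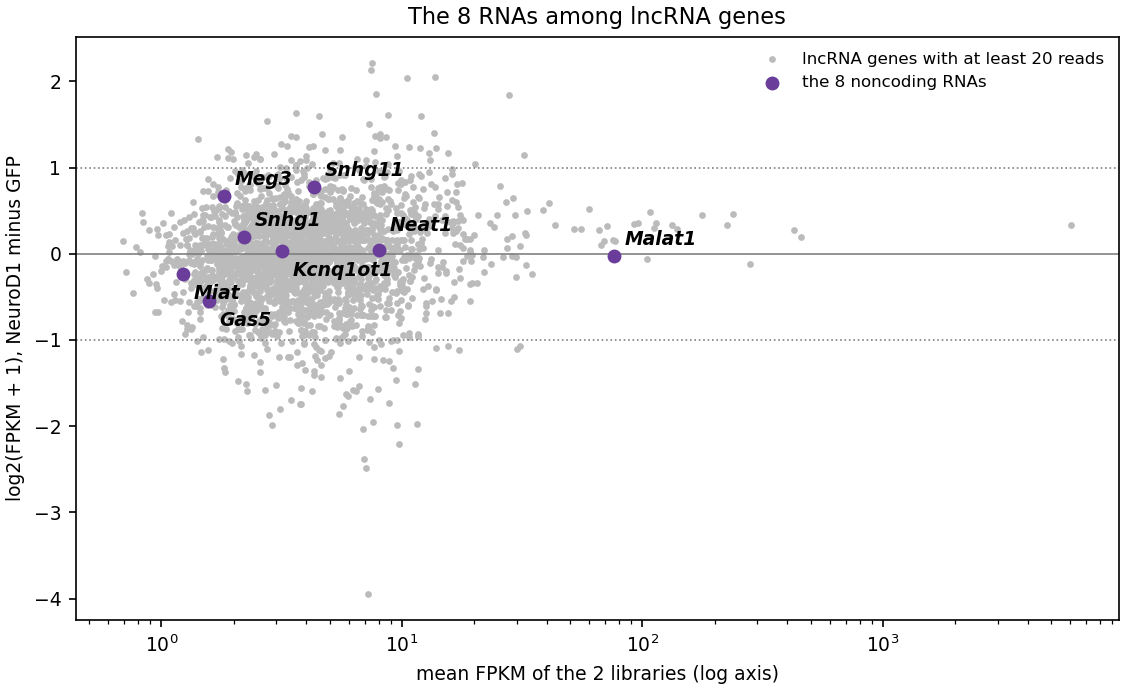
Each grey point is a lncRNA gene with at least 20 reads and the purple points are the 8 RNAs, by mean FPKM of the 2 libraries (log axis) and log2(FPKM + 1) difference, NeuroD1 minus GFP. Snhg11 (0.78) and Meg3 (0.67) lie in the upper part of the cloud without reaching the dotted line at 1, and Malat1 (-0.02) lies below most points of its level.

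Against lncRNA genes of their own level with at least 20 reads, Snhg11 had a higher log2(FPKM + 1) difference than 94.8% of 1302 genes with a mean of 2 to 5 FPKM. Meg3 had a higher one than 95.7% of 345 genes at 1 to 2 FPKM. Gas5, by contrast, exceeded 13.6% and Miat 35.9% of 345 genes at 1 to 2 FPKM, Snhg1 69.0% of 1301 and Kcnq1ot1 58.1% of 1302 genes at 2 to 5 FPKM, and Neat1 54.3% of 654 genes at 5 to 10 FPKM. These places are descriptions, as Snhg11 was chosen by this difference.

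Other noncoding RNAs of the nucleus, of imprinted loci and of neurons, a list of 34 symbols, had 33 rows of which 28 were at 1 FPKM or more. On the log2(FPKM + 1) scale 16 lay above 0 and 12 below, with a median of 0.08, and 2 reached 1 and 2 reached -1. H19, an imprinted RNA of growing tissue, stood at 4.59 FPKM in NeuroD1 and 0.920 FPKM in GFP (22 reads in NeuroD1 and 5 in GFP, ratio 4.98, interval 1.84 to 16.8). Mir22hg, the host of a microRNA, stood at 1.599 FPKM in NeuroD1 and 6.82 FPKM in GFP (6 reads in NeuroD1 and 29 in GFP, ratio 0.234, interval 0.0795 to 0.574). Rpph1, the RNA of ribonuclease P, had 2 reads in NeuroD1 and 0 in GFP, and Epb41l4aos 0 in NeuroD1 and 4 in GFP. The most abundant of the list were Lncpint, a target of p53, at 4.53 FPKM in NeuroD1 and 9.49 FPKM in GFP, and Trp53cor1, another p53 target, at 5.90 FPKM in NeuroD1 and 5.36 FPKM in GFP, both with no whole reads recovered. Of the 18 with at least 20 reads, the intervals of 4 lay above 1 and of 2 below, beside 5.55% above and 6.25% below over all lncRNA genes. Genes without whole reads, Lncpint and Trp53cor1 among them, were left out of this count.

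Proteins that build the bodies around Neat1 and Malat1 showed no common direction. Of 18 paraspeckle proteins 8 lay above 0 and 10 below on the log2(FPKM + 1) scale, with a median of -0.09 and none past 1 or -1. Hnrnph3, a splicing regulator, stood at 7.16 FPKM in NeuroD1 and 11.5 FPKM in GFP (44 reads in NeuroD1 and 80 in GFP, ratio 0.623, interval 0.421 to 0.911). Pspc1, which marks paraspeckles, stood at 2.86 FPKM in NeuroD1 and 4.58 FPKM in GFP (32 reads in NeuroD1 and 58 in GFP, ratio 0.625, interval 0.393 to 0.978), and Hnrnpk, needed for the long Neat1 isoform, had 48 reads in NeuroD1 and 78 in GFP (ratio 0.697, interval 0.476 to 1.01). Hnrnpa1 stood at 9.09 FPKM in NeuroD1 and 15.8 FPKM in GFP and the matrix protein Matr3 at 14.0 FPKM in NeuroD1 and 11.3 FPKM in GFP, both with no whole reads recovered. Of the 14 with at least 20 recovered reads, 2 intervals lay below 1 and 0 above, beside 6.1% below and 6.11% above over all genes. This count leaves out the genes without whole reads, Hnrnpa1, Hnrnpm, Matr3 and Cpsf7 (ratios 0.575, 0.929, 1.24 and 0.893), so it does not show that none was higher.

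Of 20 nuclear speckle and splicing proteins 11 lay above 0 and 9 below, with a median log2(FPKM + 1) difference of 0.06 and no interval apart from 1 among 16 with at least 20 recovered reads. The serine/arginine-rich splicing factors Srsf7 and Srsf3 were the most abundant, Srsf7 at 12.6 FPKM in NeuroD1 and 8.74 FPKM in GFP and Srsf3 at 10.3 FPKM in NeuroD1 and 8.95 FPKM in GFP. The speckle scaffold Srrm2 stood at 8.03 FPKM in NeuroD1 and 6.06 FPKM in GFP. Srsf7, Srsf3, Srrm2 and Son (ratios 1.44, 1.16, 1.33 and 0.951) had no whole reads and are not among the 16. The helicase Ddx39b stood at 4.20 FPKM in NeuroD1 and 5.62 FPKM in GFP (ratio 0.747, interval 0.459 to 1.20), and U2af2, which binds the start of splice acceptors, at 5.61 FPKM in NeuroD1 and 7.04 FPKM in GFP (ratio 0.796, interval 0.531 to 1.18).

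**Figure D4:**
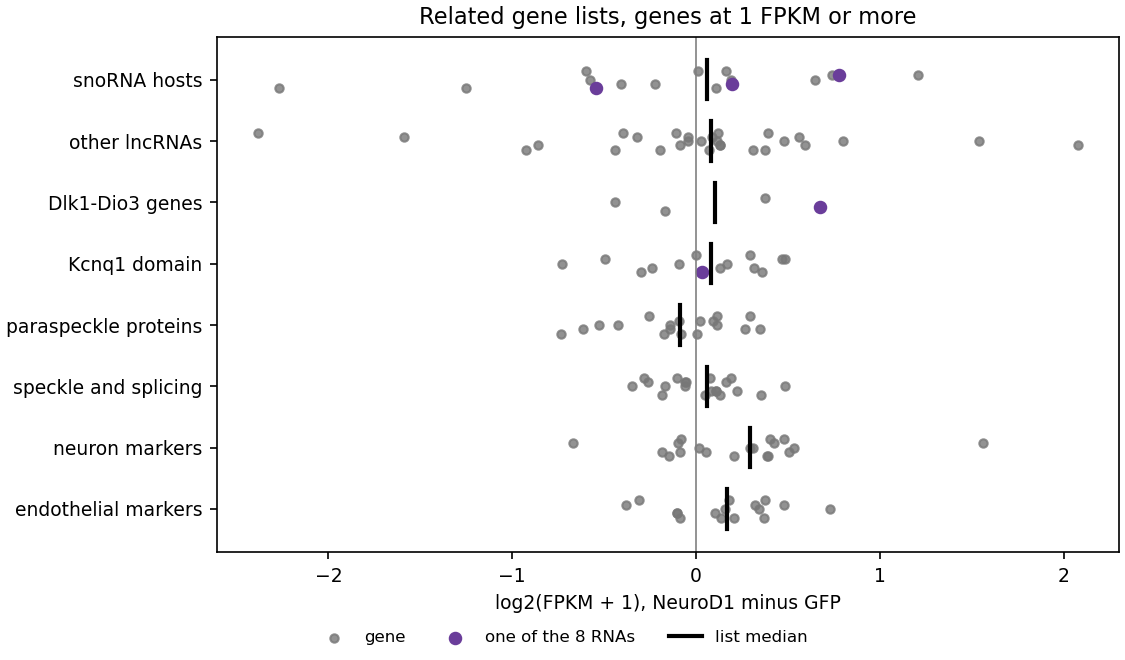
log2(FPKM + 1) difference, NeuroD1 minus GFP, of every gene at 1 FPKM or more in 8 related lists; black bars are list medians and purple points are the RNAs described here. The list medians run from -0.09 for paraspeckle proteins to 0.29 for neuron markers. The lists of snoRNA hosts and other lncRNAs spread most widely, and the genes at their ends have few reads.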

How the data were processed

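Expression in endothelial cells was profiled in 1 NeuroD1 and 1 GFP library. The authors deposited FPKM for 53465 genes. Per the submitters' processing notes, Bowtie2 2.3.5.1, featureCounts 1.6.3, DESeq and GRCm38 were used; how strand, multi-mapping reads and molecular identifiers were handled is not stated there. Dividing FPKM times GENCODE M21 exon length by a fixed step for each library gave whole reads in both libraries for 51162 genes (95.7%, tolerance 0.02 reads). The step was tested on simulated data made with these same lengths, which leaves a mismatch of length with the deposited values untested. Each difference is NeuroD1 minus GFP on the log2(FPKM + 1) scale, which understates changes of low genes. Lists counted genes at 1 FPKM or more, and 2-fold calls needed 5 FPKM. Intervals are Clopper-Pearson, 95%, for counting error only, since reads need not be independent molecules; with 1 library per group no test was made.

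The members and lists were chosen with earlier results of these data known. Named were the 8 RNAs, up to 4 list genes by difference and 2 by level, neighbouring genes, inner snoRNA genes, the 3 genes most like Snhg11 or Malat1, and Neurod1; Kcnq1 and the antisense genes, outside this rule, were named by position after their values were seen. One neighbouring gene is not reported here. Alternatives were pseudocounts, FPKM minimums, read minimums and scalings; scaling to the same sum of recovered reads was added after seeing the data. Promoter windows are from RefSeq (GRCm38.p6). Tools were Python 3.11.15, pandas 2.3.3, scipy 1.17.1, numpy 2.4.6 and, for figures, matplotlib 3.10.9.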

Additional observations from a re-analysis of the deposited data

How the results depend on the processing

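No paired analysis was possible because both groups consist of 1 library, and for the same reason no replicate could be left out. The median log2(FPKM + 1) difference of all genes at 1 FPKM or more, -0.03, was -0.22 when the FPKM sums were made equal, -0.17 with the same sum of recovered reads (a setting chosen after seeing the data) and 0.08 with the same chemoreceptor median. With the first of these, 3 of the 8 RNAs lay above 0 and 2 intervals lay below 1 (Malat1 and Kcnq1ot1); with the second, 3 and 1 (Malat1). When genes above 1000 FPKM were kept out of the equalised sums, the median difference of all genes stayed at -0.03. There, 5 of the 8 RNAs lay above 0 and none had an interval below 1. Meg3, and Snhg11, which was chosen for being higher in NeuroD1, kept an interval above 1 under the 4 scalings run. The Snhg11 difference, 0.78, ran from 0.44 with a pseudocount of 5 to 1.16 with the chemoreceptor median subtracted. The Meg3 difference, 0.67, was 0.27 with a pseudocount of 5, 1.01 with 0.1 and 1.04 with that subtraction, where its GFP level becomes 0. Genes with an interval above and below 1, 1209 and 1206, were 384 and 2920 with the same sum of FPKM, 531 and 2345 with the same sum of reads, 2092 and 679 with the same chemoreceptor median, and 483 and 296 at 100 reads or more. Genes past a difference of 1 numbered 1887 higher and 2295 lower; a pseudocount of 5 gave 1061 higher and 1387 lower, a minimum of 1 FPKM or none 4343 and 6195, a minimum of 20 FPKM 214 and 211, and 5 FPKM in both libraries 237 and 164. The filters change the number of genes tested by construction. Of the list medians, that of paraspeckle proteins was -0.29 and that of speckle and splicing proteins -0.13 with the same sum of FPKM, the speckle list 0.17 with the same chemoreceptor median and 0.13 with that median subtracted, where neuron markers had 0.50, and the other noncoding RNAs had -0.32 at 5 FPKM. The other 101 list medians under other settings stayed within the interval of the main median. What causes the other shifts was not tested. Depth limits Snhg1, Gas5 and Miat, the RNAs with the fewest reads.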

Other observations

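Among 137 lncRNA genes with at least 50 reads over both libraries and a name other than a Gm or Rik number, without the 8 RNAs, 17 had an interval above 1 and 7 below. Over all 557 lncRNA genes with 50 to below 200 reads, 6.28% lay above 1 and 6.10% below. Over the 41 with 200 reads or more, 53.7% lay above 1 and 2.44% below, so the share rose with depth. The following genes were chosen after their values were seen, from those farthest from 1 in ratio in each direction, leaving out clone names. Irx3os, antisense to a homeobox gene, stood at 5.37 FPKM in NeuroD1 and 2.43 FPKM in GFP (39 reads in NeuroD1 and 20 in GFP, ratio 2.21, interval 1.26 to 3.997). Pantr1, a noncoding RNA known from the developing mouse brain, stood at 5.87 FPKM in NeuroD1 and 2.94 FPKM in GFP (51 reads in NeuroD1 and 29 in GFP, ratio 1.99, interval 1.24 to 3.26). On the lower side, Etohd2 stood at 1.57 FPKM in NeuroD1 and 3.12 FPKM in GFP (16 reads in NeuroD1 and 36 in GFP, ratio 0.503, interval 0.261 to 0.931).

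Among lncRNA genes with at least 200 reads, a band that holds Malat1 and Neat1, the interval lay above 1 in 53.7% of 41 and below 1 in 2.44%, with a median log2(FPKM + 1) difference of 0.27. Malat1 and Neat1, at -0.02 and 0.04, were below that median. Among all 1224 genes with at least 200 reads, 21.8% lay above 1 and 5.96% below. The 3 genes nearest to Malat1 in level over the 2 libraries were Atp6v1b1 at 74.3 FPKM in NeuroD1 and 66.3 FPKM in GFP, AC154576.2 at 72.8 FPKM in NeuroD1 and 65.7 FPKM in GFP, and Umad1 at 72.1 FPKM in NeuroD1 and 64.3 FPKM in GFP.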
